A study of Mus musculus with 57 samples.

Results

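The distal colon of mice that lack the insulin receptor gene in the intestinal epithelium was compared after AOM+DSS and without treatment. The 20 arrays were chosen by their titles, 10 of AOM+DSS colon that was not tumor and 10 of untreated colon, out of 57 in the series. All 22180 genes that a probe set names with 1 symbol were compared, with the brightest probe set standing for a gene.

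All mice were female C57BL/6 adults of 18 to 24 weeks. In villin-CRE-INSR-/- mice, called knockout here, Cre recombinase under the villin promoter inactivates the floxed insulin receptor gene in gut epithelial cells, while the muscle, stroma and immune cells of the same tissue piece keep it. The littermates were INSRfl/fl mice, which carry the floxed gene, and 10 untreated and 10 AOM+DSS samples of theirs serve here as a second response. A label also calls them wildtype, and whether untreated mice received a vehicle is not stated. Treated mice received AOM (azoxymethane) intraperitoneally at 7.4 mg/kg and, in week 2, drank 3% DSS (dextran sulfate sodium) for 7 days. They were killed in week 5, an interval that the labels call 3 weeks after DSS although the weeks they name leave less. The labels speak of biological replicates and do not say how the mice were housed, so p-values measure the spread between these samples.

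AOM is a carcinogen that alkylates DNA in colon cells, and DSS strips the surface epithelium of the colon and brings on colitis. After DSS is withdrawn, the epithelium closes again while immune cells stay in the wall, and tumors arise from the crypts. The tumor samples of this series carry the same treatment and week of killing. The treated colon here is therefore non-tumor tissue from the week at which tumors were also taken. A piece of colon wall holds surface cells that absorb water, salt and short-chain fatty acids, goblet and tuft cells, stem cells at the crypt base, and the underlying immune, vascular and muscle cells.

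Values are deposited log2 levels made by RMA. Changes are log2 differences, AOM+DSS minus untreated, with 10 samples in each group compared. The ± SE is from a limma fit over all 57 arrays in 6 groups, tumors included, and rests on a spread pooled over those groups. A gene is called where its Benjamini-Hochberg adjusted p over all genes is under 0.05. In bulk tissue, fewer cells of a type and less RNA per cell cannot be told apart.

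Insr, the targeted gene, lay between 7.74 and 8.29 (median 8.04) in untreated and between 7.52 and 7.96 (median 7.72) in AOM+DSS knockout colon. In INSRfl/fl colon Insr lay between 8.70 and 9.16 untreated and between 8.28 and 8.94 after AOM+DSS, so knockout samples were below all INSRfl/fl samples of the same treatment. After AOM+DSS the knockout level was 81.17% of the untreated one (-0.30 ± 0.098, adjusted p = 0.0148, permutation p = 0.00071), with 5 of 10 treated samples below all untreated ones. Array medians lay between 5.95 and 6.03, and no pair of arrays correlated above 0.99442. Xist averaged 11.86 and 11.88 and the Y-linked gene Uty 3.26 and 3.31 in untreated and treated samples, the levels of female tissue.

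A pair of samples stood apart. Untreated replicate 2 had the lowest mean correlation with its group (0.98148, next 0.98661) and the highest tuft cell, goblet cell and surface enterocyte list means. AOM+DSS replicate 2 had the lowest neutrophil list mean, 5.76, where the other treated samples lay between 6.75 and 7.86, yet the highest B cell list mean, 8.42. For some results that rest on either, values without it are also given.

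The response was broad. Of 22180 genes, 6692 were called (30.2%), 3538 higher (16.0%) and 3154 lower (14.2%), around a median over all genes of -0.040. Changes of at least 2-fold were mostly upward, in 344 genes (1.55%) against 34 (0.153%). In 817 genes (3.68%) all 10 treated samples lay above all 10 untreated ones, and in 235 (1.06%) all lay below. Of the 2-fold calls, 212 of 344 higher and 21 of 34 lower genes showed no overlap between the groups.

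**Figure D1:**
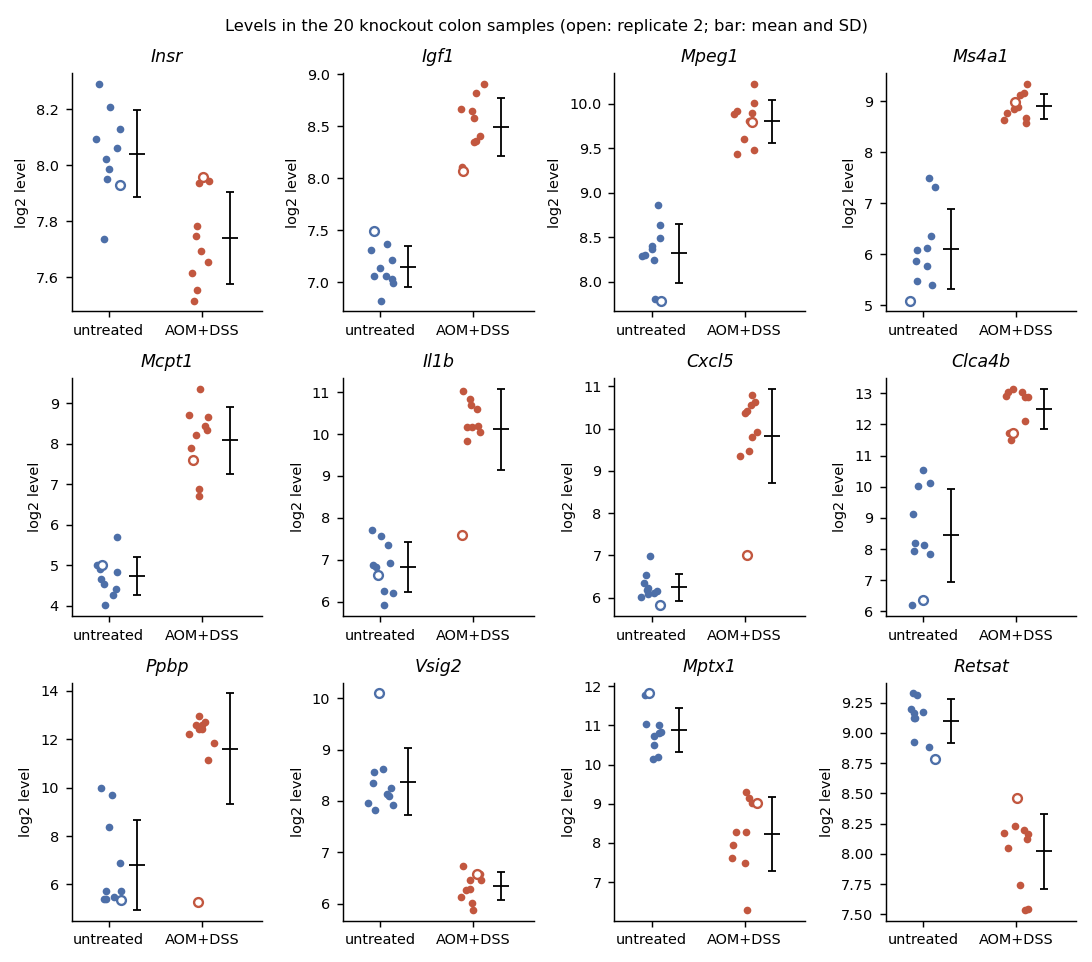
Log2 levels of 12 genes in untreated (blue) and AOM+DSS (red) knockout colon, 10 samples each, with mean and SD; open points are replicate 2 of each group. Igf1, Mpeg1, Ms4a1, Mcpt1, Cxcl5 and Clca4b were higher in every treated sample, Vsig2, Mptx1 and Retsat lower, and treated replicate 2 lies with the untreated samples in Ppbp and Il1b.

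The 10 rises with the smallest p included several leukocyte genes, and none of them overlapped between the groups. Mpeg1, a pore-forming protein of macrophages, lay between 7.79 and 8.87 (median 8.33) untreated and between 9.44 and 10.22 (median 9.85) after AOM+DSS (1.49 ± 0.12, adjusted p = 1.92e-13). Every treated sample stood above the highest untreated one. Cybb, the catalytic subunit of the phagocyte NADPH oxidase, ran from 8.36 to 9.07 (median 8.65) untreated and from 9.97 to 10.66 (median 10.21) treated, a 3.00-fold rise. The metal reductase Steap4 rose 4.31-fold, from a median of 6.75 (6.45 to 7.70) to 9.11 (8.29 to 9.75). Cd84, a leukocyte adhesion receptor, rose by 1.28 ± 0.11, and Pik3ap1, an adaptor that links B cell and myeloid receptors to phosphoinositide 3-kinase, by 1.24 ± 0.11. The others were Tnfrsf8, which encodes the receptor CD30 (1.86 ± 0.17), the protease inhibitor gene Slpi (1.85 ± 0.17), the macrophage gene Wfdc17 (1.43 ± 0.13), Igf1 (1.34 ± 0.12) and Itgav, integrin alpha V (0.65 ± 0.056). A dim second probe set of Itgav, with a mean of 4.52, differed by 0.017.

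The 10 falls with the smallest p did not overlap between the groups either. Retsat, the enzyme that saturates retinol, lay between 8.78 and 9.33 (median 9.14) untreated and between 7.54 and 8.46 (median 8.15) treated (-1.08 ± 0.10, adjusted p = 4.88e-12). Each treated sample was below the lowest untreated one. Odf3b fell by 1.17 ± 0.11, from 7.46 to 8.20 (median 8.04) untreated down to 6.35 to 7.24 (median 6.73). Vsig2, an immunoglobulin-type surface protein of epithelia, fell 4.12-fold, from a median of 8.19 (7.83 to 10.09) to 6.37 (5.88 to 6.74). The highest of these Vsig2 levels belonged to untreated replicate 2, and the others reached 8.62. Coq8a, of coenzyme Q synthesis, fell by 0.85 ± 0.089, Mlxipl, which encodes the glucose-sensing transcription factor ChREBP, by 0.91 ± 0.099, and Pm20d1, an enzyme of N-acyl amino acids, by 1.13 ± 0.12. Bex4 (-1.46 ± 0.14), Cabcoco1 (-1.18 ± 0.12), Tspan33 (-1.0 ± 0.11) and Tmem98 (-0.61 ± 0.065) completed them. Bex4 had a second, dimmer probe set at -0.67.

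Large rises often overlapped between the groups. Of the 12 largest rises 4 showed no overlap (Clca4b, Cxcl5, Mcpt1 and Khdc1a), against 8 of the 12 largest falls. Khdc1a ran from 4.09 to 5.50 (median 4.84) untreated and from 7.00 to 8.88 (median 8.18) treated.

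Treatment moved with the level of lymphocyte genes. The B cell list mean lay between 5.96 and 7.30 untreated and between 7.79 and 8.42 treated, with no overlap, and that of the T cell list between 6.14 and 6.59 and between 6.97 and 7.63. With both list means in the model, 28 genes were called, 20 higher and 8 lower, 27 of them among the 6692. Of 80 called genes followed by name, all 80 kept their direction in that fit and 11 their call: Clca4b, Cxcl5, Itgav, Lgi2, Odf3b, Saa3, Slpi, Steap4, Tmem98, Tnfrsf8 and Vsig2. Lgi2 was named after its value was seen. Followed genes such as Ms4a1, Cr2, Cd22 and Cd3e are themselves members of the B cell or T cell list, so a smaller change in that fit is built in for them. Only the CXC chemokine, CC chemokine, acute-phase and Clca lists described here kept a called member in it. In that fit the list median was -0.08 for interferon-gamma, -0.33 for MHC class II, -0.56 for plasma cell and -0.0072 for CC chemokine genes, all of them positive without the covariates. Since the list means of the groups do not overlap, treatment and lymphocyte content cannot be told apart in these 20 samples.

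**Figure D2:**
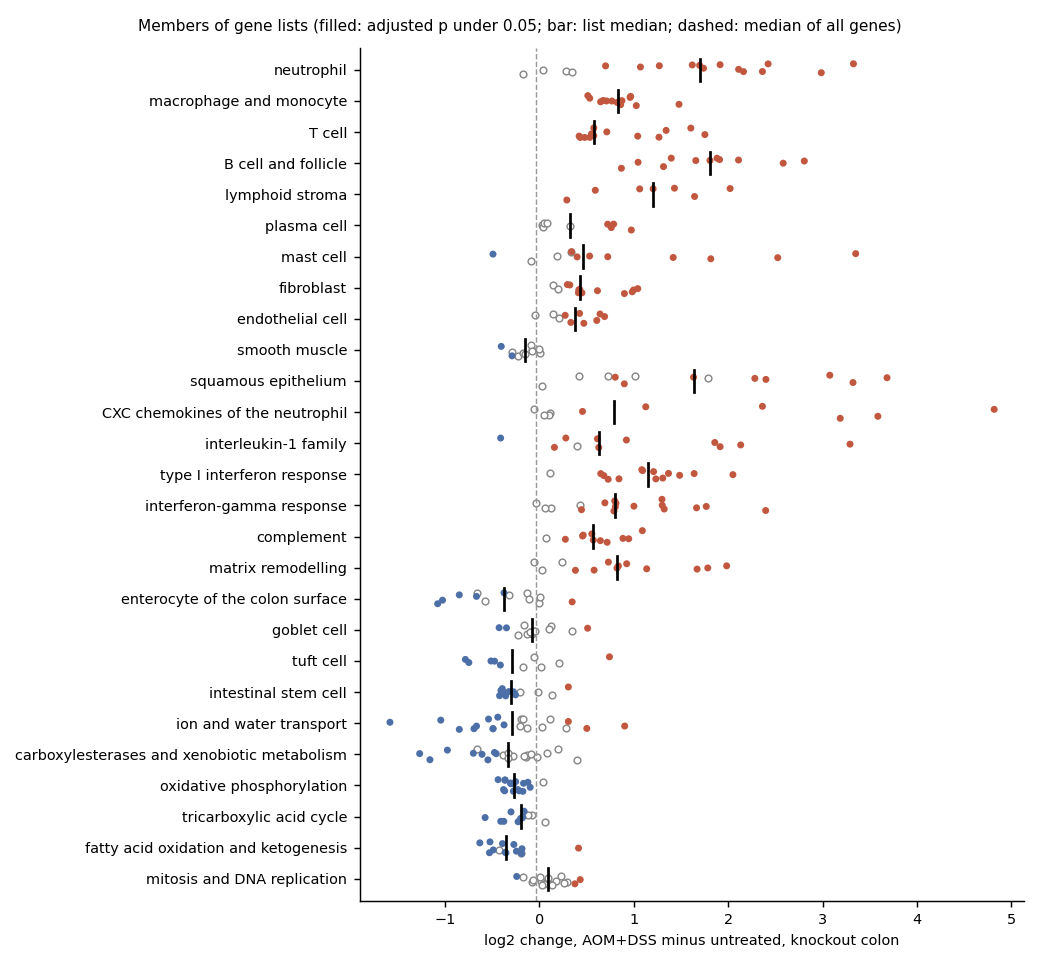
Log2 changes of the measured members of 27 gene lists in knockout colon, AOM+DSS minus untreated; filled points are genes called higher (red) or lower (blue), open points are not called, black bars are list medians and the dashed line is the median of all genes (-0.040). B cell, neutrophil, squamous and lymphoid stroma lists have the highest medians, and the metabolic lists lie at small falls.

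Interleukin-1 and chemokine genes of the neutrophil response were high in 9 of 10 treated samples. Il1b and Il1a are alarm cytokines that act through the receptor Il1r1 and are held back by the decoy receptor Il1r2 and the antagonist Il1rn. Of 11 measured genes of the interleukin-1 family, 9 were higher and 1 lower (median 0.63). Il1b lay between 5.91 and 7.71 (median 6.85) untreated and between 7.59 and 11.03 (median 10.18) treated (3.29 ± 0.33, adjusted p = 2.48e-11). The lowest treated value is that of replicate 2, and the other 9 treated samples lay at 9.84 or more, above every untreated sample. Il1a ran from 4.45 to 5.13 (median 4.85) untreated and from 5.14 to 7.58 (median 6.74) treated, with no overlap (1.86 ± 0.23). Il1r2 rose by 1.91 ± 0.24, Il1f9, an epithelial family member also called interleukin-36 gamma, by 2.13 ± 0.32, and Il33 by 0.92 ± 0.18. The lower gene was Il18, made by surface epithelium, which fell by 0.41 ± 0.13. It was named after its value was seen.

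Chemokines that attract neutrophils through the receptor Cxcr2 rose with it, though not all of them. Of 10 measured genes of the CXC list, 6 were called higher (median 0.79). Cxcl5, made by epithelial cells, lay between 5.82 and 6.98 (median 6.17) untreated and between 7.00 and 10.80 (median 10.15) treated, a 12-fold rise (3.59 ± 0.36). Replicate 2 held the lowest treated value and the next was 9.34, so the groups were apart by a small gap in 1 sample and by a wide one in 9. Cxcl3 ran from 3.49 to 4.32 (median 4.02) and from 3.77 to 8.51 (median 7.26), with replicate 2 inside the untreated range. Cxcl2 rose by 1.13 ± 0.24 and Cxcl1 by 0.46 ± 0.15 (adjusted p = 0.0159). Not called were Pf4 (0.11 ± 0.10), the receptor Cxcr1 (0.10) and the growth factors Csf2 (-0.06) and Csf3 (0.04).

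The promoters of Cxcl1, Cxcl2 and Cxcl3, which lie near each other on chromosome 5, are shown because all 3 carry a match to the core of the NF-kB motif, GGANTTTCC, on either strand within 150 bases before the gene's start. That match occurs in 226 of 32851 promoters of the same length (0.688%). Of 5 called CXC genes with a promoter in the RefSeq table (GRCm38.p6), these 3 held it, and of 9 called interleukin-1 genes 0 did. In these counts a gene holds the match if any of its starts does, while the share is over single promoters. A match describes the letters and is not a measured binding site. Capitals mark the match, 70, 96 and 72 bases before the start. Sequences run 5′ to 3′ on the gene's strand.
Cxcl1, chr5:90891095-90891244, plus strand: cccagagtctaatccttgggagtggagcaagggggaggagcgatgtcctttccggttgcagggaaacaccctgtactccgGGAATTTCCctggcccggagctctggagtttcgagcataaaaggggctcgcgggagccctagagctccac
Cxcl2, chr5:90903749-90903898, plus strand: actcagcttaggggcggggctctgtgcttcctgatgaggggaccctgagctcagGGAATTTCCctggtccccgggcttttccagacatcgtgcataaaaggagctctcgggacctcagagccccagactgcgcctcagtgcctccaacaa
Cxcl3, chr5:90785951-90786100, plus strand: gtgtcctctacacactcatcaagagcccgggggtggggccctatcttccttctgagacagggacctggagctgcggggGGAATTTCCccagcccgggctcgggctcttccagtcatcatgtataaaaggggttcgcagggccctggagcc

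Genes of the neutrophil itself followed. Of 17 measured markers 13 were higher and 0 lower (median 1.70), and 6 showed no overlap. Cxcr2 lay between 5.60 and 6.74 (median 6.30) untreated and between 6.76 and 9.41 (median 8.67) treated (2.36 ± 0.30). All treated samples were above all untreated ones, replicate 2 by a narrow margin, and the next lowest treated level was 7.85. Mmp9, a gelatinase, rose by 1.62 ± 0.21, the receptor gene Clec4e by 2.42 ± 0.31, Csf3r, the receptor of granulocyte colony-stimulating factor, by 1.70 ± 0.22, and Clec4d by 1.74 ± 0.22. The granule genes Mpo (-0.17), Ngp (0.28) and Camp (0.04) were not called, nor was the cystatin gene Stfa1 (0.35). Ltf, another granule gene that is also expressed by glandular epithelium, rose by 3.33 ± 0.71 with an SD of 1.77 among treated samples. With the mean of the squamous list described next in the model, it rose by 1.07 (adjusted p = 0.0384).

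Keratins of stratified squamous epithelium, which lines the anal canal and not the colon, were high in many of the same samples. Of 13 measured squamous genes 8 were higher and 0 lower (median 1.63), and none was without overlap. The list mean ran from 5.13 to 7.74 (median 5.45) untreated and from 5.26 to 9.42 (median 7.90) treated. Untreated replicates 3, 5 and 9 reached 7.11 to 7.74, and treated replicate 2 was as low as most untreated samples. Krt14 lay between 6.04 and 7.75 (median 6.52) untreated and between 6.01 and 11.09 (median 10.18) treated (3.08 ± 0.53). In 9 of 10 treated samples it was above every untreated one, and in replicate 2 below them all. With the squamous list mean in the model its rise was 1.33. Krt6a rose by 3.68 ± 0.86 and by 4.30 without treated replicate 2, and was not called with the squamous list mean in the model (0.78, adjusted p = 0.104). Krt14 and Krt6a are themselves members of that list, so a smaller change in that fit is built in for both. With the squamous list mean in the model, 5027 genes were called, 4719 of them among the 6692.

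Ppbp, a chemokine known from platelets, had the largest rise of all and followed the keratins. It lay between 5.33 and 9.99 (median 5.72) untreated and between 5.29 and 12.95 (median 12.42) treated (4.82 ± 0.90, 5.52 without treated replicate 2, and 1.85 with the squamous list mean in the model). Treated replicate 2 was below every untreated sample and the other 9 were above every untreated one. The highest untreated levels, 9.99, 9.70 and 8.35, came from replicates 9, 3 and 5, which were also high in the squamous list. Over the 10 treated samples Ppbp and Krt14 had a Pearson r of 0.931 (permutation p = 2e-05, adjusted over 5 pairs 1e-04) and a Spearman rho of 0.976 (adjusted p = 1e-04). Without replicates 1 and 2, the farthest from the Ppbp median, r was 0.875. The other platelet chemokine, Pf4, was not called.

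Il1b and Cxcl5 had a Pearson r of 0.888 over the same 10 samples (permutation p = 0.0161, adjusted 0.0402) and a Spearman rho of 0.612 (adjusted p = 0.167). Without replicates 2 and 6 the r was 0.266, so that relation rests on those samples. Il1b with Krt14 gave r = 0.678 (adjusted permutation p = 0.150), rho = -0.079 and r = -0.498 without the same pair. For Ms4a1 with Cd3e and Il1b with Slc26a3, r was 0.394 (adjusted permutation p = 0.329) and 0.180 (adjusted permutation p = 0.608).

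**Figure D3:**
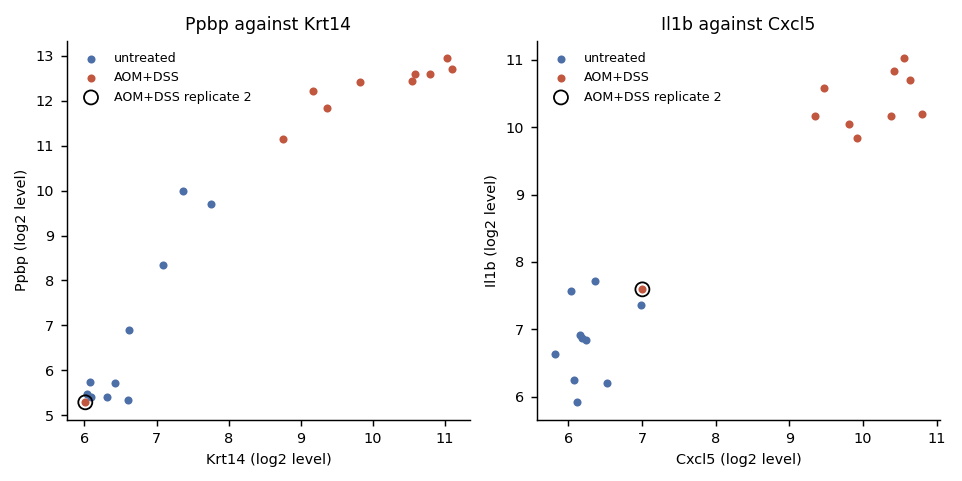
Ppbp against Krt14 (left) and Il1b against Cxcl5 (right), log2 levels in each of 20 knockout colon samples, untreated in blue and AOM+DSS in red; the ring marks treated replicate 2. Ppbp follows Krt14 along the treated samples (r = 0.931), while Il1b and Cxcl5 form a cloud with replicate 2 far below it.

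Macrophage genes were high in every treated sample, replicate 2 included. All 14 measured macrophage and monocyte markers were higher (median 0.84), 8 of them without overlap. Ms4a7 rose by 0.97 ± 0.094, the monocyte homing receptor Ccr2 by 1.48 ± 0.14 and Cd68, a lysosomal protein, by 1.03 ± 0.11. The list mean lay between 8.19 and 8.89 untreated and between 9.05 and 9.65 treated. Of 11 measured complement genes 10 were higher (median 0.57), 6 without overlap, led by C3ar1, the receptor of an activated complement fragment (1.09 ± 0.11). Among CC chemokines 7 of 13 were higher and 1 lower, or 2 lower without untreated replicate 6 or treated replicate 7. The leading ones were Ccl3 (2.06 ± 0.19) and Ccl8 (1.53), and Ccl4 (0.08) and Ccl20 (0.13) were not called.

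B cell genes were high in every treated sample. All 11 measured B cell and follicle genes were higher (median 1.81), and 10 showed no overlap. Ms4a1, which encodes CD20 and was named after its value was seen, lay between 5.09 and 7.49 (median 5.97) untreated and between 8.57 and 9.34 (median 8.87) treated, a 7.00-fold rise (2.81 ± 0.35). Untreated replicates 4 and 10 held the highest untreated B cell list means, 7.30 and 6.98. Cr2, the complement receptor of follicular dendritic and B cells, ran from 5.03 to 7.11 (median 5.22) and from 7.73 to 8.67 (median 8.00), again with no overlap. Cd22 rose by 1.81 ± 0.20, Pax5, the transcription factor of B cell identity, by 1.04 ± 0.12, and Cxcr5, the receptor that brings cells into follicles, by 1.40 ± 0.17.

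The genes that organise lymphoid tissue rose too, all 7 measured ones (median 1.20). Cxcl13, the ligand of Cxcr5, rose by 1.64 ± 0.23, lymphotoxin beta (Ltb) by 1.43 ± 0.16 and Madcam1, the vascular address for lymphocytes, by 1.20 ± 0.15. All 13 measured T cell genes were higher (median 0.58), 6 without overlap. Cd3e lay between 6.68 and 7.86 (median 7.20) untreated and between 8.24 and 9.39 (median 8.90) treated (1.60 ± 0.16). Plasma cell genes differed in part: 4 of 9 were called (Prdm1, Pou2af1, Irf4 and Mzb1), while the joining chain Jchain (0.32), Sdc1 (0.03), Tnfrsf17 (0.02), Derl3 (0.08) and Xbp1 (0.05) were not.

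The mast cell protease Mcpt1, of the mucosal type, was among the 12 largest rises. Mcpt1 lay between 4.01 and 5.70 (median 4.75) untreated and between 6.71 and 9.36 (median 8.28) treated, a 10.2-fold rise (3.35 ± 0.38). Mcpt2 ran from 3.89 to 4.57 (median 4.04) and from 5.60 to 7.98 (median 6.78), and the carboxypeptidase Cpa3 from 5.53 to 7.31 (median 6.51) and from 7.46 to 9.18 (median 8.18). In none of the 3 did the groups overlap, and treated replicate 6 was the highest in each. Of 12 measured mast cell genes 8 were higher and 1, Kit, lower (-0.49 ± 0.11), and the list median was 0.47. Kit is also expressed by pacemaker cells and deep crypt secretory cells. The tryptase genes of connective tissue mast cells, Tpsb2 (0.33) and Tpsab1 (-0.09), were among the 3 not called. The chymase genes of the same cells, Mcpt4 and Cma1, are also in the list, and at least 1 of them was called higher. The calls were thus not confined to genes of the mucosal type. With the squamous list mean in the model 5 members were called higher.

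Interferon-induced genes rose, with 1 untreated sample already high. Type I interferons and interferon gamma act through Stat proteins on genes that restrict viruses, load antigen and degrade tryptophan. Of 14 measured type I interferon genes 13 were higher (median 1.15, 2 without overlap), and of 17 interferon-gamma genes 13 (median 0.80, 0 without overlap). Ifit1 lay between 6.75 and 9.08 (median 7.49) untreated and between 9.06 and 10.29 (median 9.67) treated (2.05 ± 0.26). Untreated replicate 5 held the highest untreated value, inside the treated range, and the other untreated samples did not exceed 7.84. Ido1, which degrades tryptophan, ran from 6.53 to 9.42 (median 6.94) and from 8.94 to 10.99 (median 9.73), with replicate 5 again the highest untreated sample. The interferon-gamma list mean of that sample was 9.02, above the highest treated one, 8.95. Ifng itself (0.06) and Irf1 (0.13) were not called. Of 8 measured MHC class II genes 7 were higher, 3 of them without overlap. These included H2-DMb2 (1.59 ± 0.24) and the B cell gene H2-Ob (1.40).

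For 4 interferon-induced genes the promoter holds GAAANNGAA, the core of the interferon response element, on either strand within 150 bases of the start, where 1299 of 32851 promoters do (3.95%). Of the called genes with a promoter in the table, 5 of 9 interferon-gamma and 4 of 7 type I genes held it, and 0 of 5 CXC genes. These counts are again by gene and the share by promoter. Igtp and Irgm1 encode GTPases that act on vacuoles of parasites, Isg15 a ubiquitin-like modifier and Ifit1 a sensor of foreign RNA ends. Igtp and Irgm1 were named after their values were seen. Capitals mark matches, which can run together where they overlap. The numbers of matches are 1 in Igtp, 2 in Irgm1, 3 in Isg15 and 3 in Ifit1.
Igtp, chr11:58199406-58199555, plus strand: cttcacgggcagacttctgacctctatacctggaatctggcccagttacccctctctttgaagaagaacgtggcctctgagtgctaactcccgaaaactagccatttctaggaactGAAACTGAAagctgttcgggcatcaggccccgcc
Irgm1, chr11:48871421-48871570, minus strand: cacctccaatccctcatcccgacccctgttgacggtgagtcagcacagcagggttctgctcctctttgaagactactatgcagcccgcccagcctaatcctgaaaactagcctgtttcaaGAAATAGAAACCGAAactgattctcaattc
Isg15, chr4:156200819-156200968, minus strand: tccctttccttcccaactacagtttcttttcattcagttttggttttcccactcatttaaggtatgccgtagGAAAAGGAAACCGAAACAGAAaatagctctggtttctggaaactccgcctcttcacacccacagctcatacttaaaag
Ifit1, chr19:34640739-34640888, plus strand: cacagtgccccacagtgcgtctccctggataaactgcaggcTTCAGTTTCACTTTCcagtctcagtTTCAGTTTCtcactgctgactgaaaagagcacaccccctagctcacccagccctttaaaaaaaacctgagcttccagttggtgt
These genes rose by 1.0 ± 0.32 (Igtp), 0.79 ± 0.22 (Irgm1), 1.49 ± 0.22 (Isg15) and 2.05 ± 0.26 (Ifit1).

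**Figure D4:**
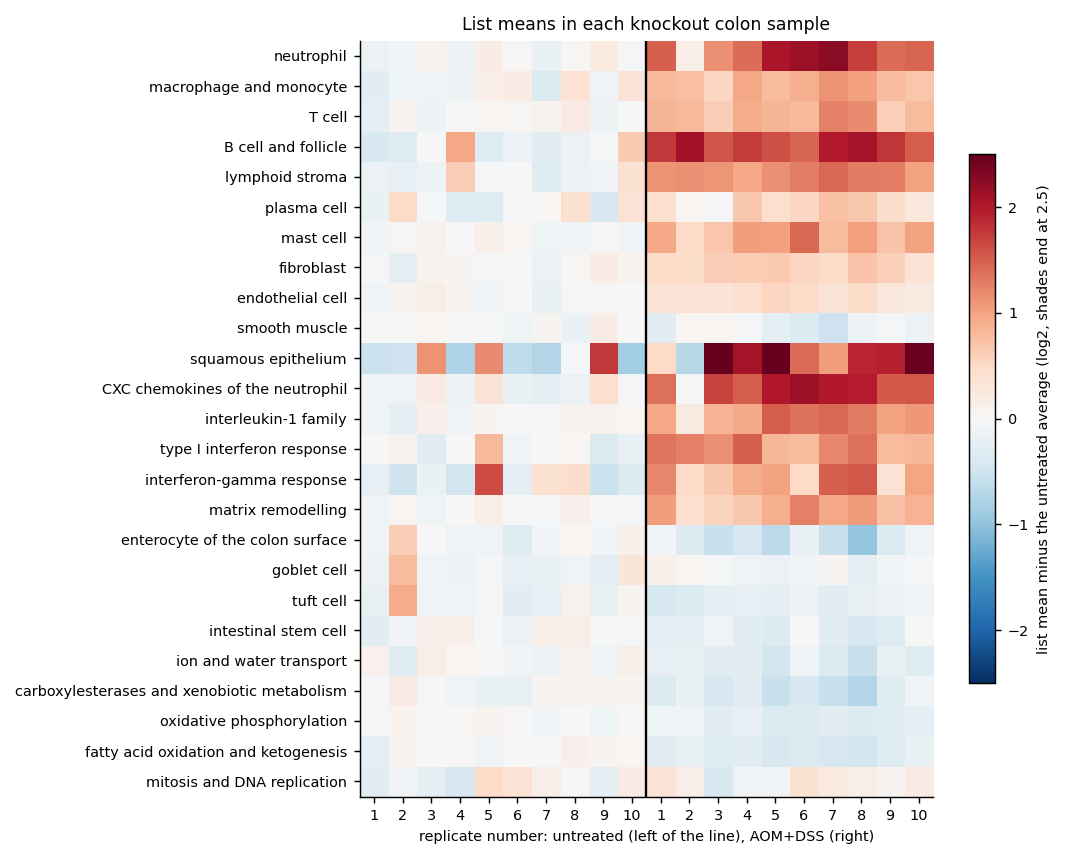
Mean log2 level of 25 gene lists in each knockout colon sample, minus the average of the 10 untreated samples; untreated replicates are left of the line and AOM+DSS replicates right of it, and shades end at 2.5. Treated replicate 2 is pale in the neutrophil, CXC and squamous lists and dark in the B cell list, and untreated replicates 3, 5 and 9 are high in the squamous list.

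Acute-phase and defence genes gave the next block, and which cells expressed them was not measured. Clca4b, of a family of secreted chloride channel regulators, lay between 6.20 and 10.52 (median 8.17) untreated and between 11.51 and 13.14 (median 12.89) treated, a 16.6-fold rise (4.06 ± 0.41). The untreated samples spread widely and all treated ones lay above them. Of 6 Clca genes 5 were higher, or 3 with the squamous list mean in the model, and the goblet cell gene Clca1 fell by 0.35 ± 0.13, a call lost in that fit and without untreated replicate 2 or 10 or treated replicate 5, 7 or 8. Saa3, an acute-phase protein, ran from 5.16 to 6.63 (median 5.94) and from 6.52 to 11.24 (median 10.11), with treated replicate 2 the lowest and inside the untreated range. Slpi ran from 6.88 to 7.52 (median 7.11) and from 8.24 to 9.60 (median 9.21), and Lcn2, which binds bacterial siderophores, from 6.85 to 7.60 (median 7.25) and from 7.53 to 10.13 (median 8.90). Of 14 measured defence genes 7 were higher and 2 lower (median 0.51), with a median of 0.94 without both samples numbered 2. The lectins Reg3b (-0.98) and Reg3g (-0.55) were not called.

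Plet1, a marker of regenerating epithelium, ran from 7.09 to 12.12 (median 7.87) untreated and from 9.11 to 12.41 (median 11.35) treated (2.77 ± 0.41). Untreated replicate 2 held that highest untreated value and the next was 8.84, and without both samples numbered 2 the change was 3.42. Of 11 measured regenerative and fetal-like genes 6 were higher and 0 lower (median 0.48), with Anxa1 at 0.95 ± 0.13 and the keratin Krt7 at 0.48 ± 0.073.

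The stroma was altered in its matrix genes. Lox, which crosslinks collagen, lay between 6.41 and 6.84 (median 6.57) untreated and between 8.01 and 9.21 (median 8.53) treated (1.98 ± 0.20). Col1a1 ran from 9.23 to 9.70 (median 9.60) and from 10.18 to 10.95 (median 10.68), and the stromelysin Mmp3 from 4.86 to 5.55 (median 5.31) and from 5.96 to 7.84 (median 6.91). None of the 3 overlapped between the groups. Of 13 measured matrix genes 10 were higher (median 0.82) and of 13 fibroblast genes 11 (median 0.43), or 7 with the squamous list mean in the model. Among endothelial genes 7 of 10 were higher, led by the junction gene Cdh5 (0.64 ± 0.095). Of the smooth muscle genes, Mylk (-0.41 ± 0.11) and Smtn (-0.29) were the 2 called lower of 11, and Myh11 (-0.08) and Acta2 (-0.09) were not. The share of smooth muscle genes called in either direction was below the 30.2% of all genes.

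Epithelial products were among the largest falls. Mptx1, a mucosal pentraxin, lay between 10.15 and 11.82 (median 10.81) untreated and between 6.29 and 9.30 (median 8.28) treated, a 6.26-fold fall with no overlap (-2.65 ± 0.33). Ang4, an antimicrobial ribonuclease of secretory cells, ran from 6.96 to 13.10 (median 9.61) and from 5.45 to 8.69 (median 6.90), and 5 of 10 treated samples lay inside the untreated range. Mettl7b (-1.41), the peptidase genes Naaladl1 (-1.57) and Cpm (-1.36) and the oxidase gene Hao2 (-1.48) fell without overlap. With the squamous list mean in the model Hao2 stood at -0.93.

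Products of surface cells were lower in part. Guca2a, which encodes guanylin, a peptide that drives salt secretion, lay between 11.77 and 12.92 (median 12.08) untreated and between 10.46 and 11.48 (median 11.08) treated (-1.03 ± 0.17), with no overlap. The water channel Aqp8 ran from 10.91 to 11.21 (median 11) and from 9.65 to 10.79 (median 10.55) without overlap, and was not called with the squamous list mean in the model (-0.37, adjusted p = 0.247). Of 13 measured surface enterocyte genes 5 were lower and 1, Krt20, higher (median -0.38). The count of lower genes was 3 without untreated replicate 2 or 10 or treated replicate 5 or 8, and 2 with the squamous list mean in the model. Over all genes 14.2% were called lower, and 2176 of 22180 with that list mean in the model. The chloride exchanger Slc26a3 (-0.13 ± 0.28) and the carbonic anhydrase Car1 (-0.33) were not called. Car4 was not called (-0.57, adjusted p = 0.0680) although its groups did not overlap.

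Salt transport genes moved in opposite directions. Of 20 measured transport genes 10 were lower and 3 higher (median -0.29), or 5 lower with the squamous list mean in the model. The sodium channel's alpha subunit Scnn1a fell by 0.49 ± 0.10, while the beta and gamma subunits, Scnn1b (0.50 ± 0.16) and Scnn1g (0.90 ± 0.26), rose. Both were named after their values were seen. Slc12a2, the chloride loader of crypt cells, lay between 11.32 and 11.57 (median 11.41) untreated and between 11.59 and 11.86 (median 11.73) treated, a small rise in every treated sample (0.31 ± 0.061). The magnesium channel Trpm6 fell by 1.05 ± 0.17 and the chloride channel Cftr by 0.49 ± 0.13. Fxyd4, a regulator of the sodium pump, ran from 6.70 to 9.84 (median 9.66) and from 7.22 to 8.34 (median 7.55), where untreated replicate 2 held the lowest value of all and the other untreated samples lay at 8.54 or more. The Fxyd4 change was -1.58, and -1.92 without both samples numbered 2.

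Tuft and stem cell genes were lower in part, and goblet cell genes were called at a share below that of all genes (30.2%). Muc2, the main mucin, ran from 12.99 to 13.72 (median 13.15) untreated and from 13.24 to 13.39 (median 13.33) treated and was not called (0.12 ± 0.080), but was with the squamous list mean in the model (0.25, adjusted p = 0.0170). Of 14 goblet genes 1 was higher (Spink4, 0.51) and 2 lower (Atoh1, -0.43, and Clca1), or 1 lower without untreated replicate 2 or 10 or treated replicate 5, 7 or 8. The goblet median was -0.08, and with the squamous list mean in the model 2 were higher and 0 lower, with a median of 0.10. Of 10 measured tuft cell genes 5 were lower and 1 higher (median -0.29), and 2 were higher without untreated replicate 2. Trpm5, the cation channel of tuft cells, ran from 6.53 to 7.76 (median 6.81) and from 6.06 to 6.76 (median 6.45). Of 12 measured stem cell genes 8 were lower and 1 higher (median -0.30). Lrig1, a brake on growth factor receptors, ran from 9.48 to 9.89 (median 9.64) and from 9.06 to 9.48 (median 9.23), with no overlap. Lgr5, the stem cell receptor of R-spondins, fell by 0.41 ± 0.13, and by 0.30 with the squamous list mean in the model, where it was not called (adjusted p = 0.126).

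Transcription factors of gut identity were lower in part. Of 12 measured, 5 were lower (median -0.15), or 3 without treated replicate 5 or 8 and 2 with the squamous list mean in the model. Over all genes 14.2% were called lower, and 2176 of 22180 with that list mean in the model. Cdx2 ran from 7.61 to 10.17 (median 8.46) untreated and from 7.35 to 8.60 (median 7.98) treated (-0.61 ± 0.22). Its highest untreated value was that of replicate 2, the next was 8.80, and without that sample it was not called (-0.43, adjusted p = 0.101), nor without treated replicate 5 (adjusted p = 0.0506) or 8 (adjusted p = 0.0606), nor with the squamous list mean in the model (-0.36, adjusted p = 0.290).

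Of 3 mitochondrial lists, most members were called lower, by small amounts. Colon epithelium burns butyrate by fatty acid oxidation and the respiratory chain. Of 17 measured respiratory chain genes 16 were lower and 0 higher (median -0.27), or 7 with the squamous list mean in the model. Ndufv1, a subunit of complex I, lay between 9.61 and 10.06 (median 9.79) untreated and between 9.26 and 9.64 (median 9.45) treated (-0.37 ± 0.063), with 8 of 10 treated samples below all untreated ones. Of 12 citrate cycle genes 9 were lower (median -0.19). Idh2 ran from 10.23 to 10.63 (median 10.55) and from 9.63 to 10.22 (median 9.93), and it, Fh1 (-0.38 ± 0.052) and Suclg1 (-0.41 ± 0.075) showed no overlap. Of 14 fatty acid oxidation genes 11 were lower and 1, Acadl, higher (0.41 ± 0.071, median -0.36). Acads, the dehydrogenase of butyrate, ran from 9.38 to 10.08 (median 9.52) and from 8.60 to 9.36 (median 8.96). Its groups were apart by the width of a few hundredths.

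Other metabolism showed single genes. Of 21 measured esterase and xenobiotic genes 8 were lower and 0 higher (median -0.33), with the esterase Ces1f (-1.27 ± 0.18), the sulfotransferase Sult1a1 (-1.16 ± 0.19) and the glutathione transferase Gstm1 (-0.48 ± 0.080) without overlap. Cyp1a1 (-0.03) and Cyp2c55 (-0.66) were not called. In the urea cycle Otc ran from 8.12 to 9.55 (median 8.97) untreated and from 6.83 to 8.72 (median 7.51) treated (-1.39 ± 0.26), with replicate 10 the 1 treated sample inside the untreated range. Nags, which makes the cofactor of the cycle, fell by 0.64 ± 0.11. Arg1, the arginase of the urea cycle, ran from 5.36 to 8.18 (median 6.05) and from 5.19 to 10.71 (median 9.35), and replicate 2 was again the lowest. Its rise of 2.61 was 1.05 with the squamous list mean in the model. Hif1a, a transcription factor subunit of the response to low oxygen, rose by 0.70 ± 0.087 and the lactate exporter Slc16a3 by 0.76 ± 0.12. Ldha (0.01), Pkm (0.02), Vegfa (-0.040) and Car9 (-0.16) were not called.

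Among insulin and growth factor genes, the ligand changed more than the receptors. Igf1, made by stroma and macrophages, lay between 6.83 and 7.50 (median 7.10) untreated and between 8.07 and 8.91 (median 8.49) treated, a 2.53-fold rise with no overlap. Grb10, an adaptor that inhibits both receptors, ran from 7.41 to 7.92 (median 7.68) and from 7.93 to 8.37 (median 8.21), and rose in every treated sample (0.51 ± 0.10). The adaptor Sh2b2 rose by 0.35 ± 0.080. Irs1 ran from 7.26 to 7.85 (median 7.66) and from 7.19 to 7.66 (median 7.30), a fall of 0.28 ± 0.087 with 7 of 10 treated samples in the untreated range. Igf1r (0.029 ± 0.092) and Irs2 (-0.26 ± 0.14, adjusted p = 0.160) were not called. Irs2 was called without treated replicate 2 (-0.34, adjusted p = 0.0458). Of 21 measured genes 3 were higher and 2 lower, a share below the 30.2% of all genes, or 5 lower without that sample. Akt1, Akt2 and Pik3ca lay between -0.08 and 0.02.

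Wnt inhibitors and Wnt targets moved both ways, 3 of 10 higher and 3 lower. Notum, a Wnt inhibitor, ran from 5.21 to 5.74 (median 5.42) untreated and from 4.78 to 5.95 (median 5.54) treated and was not called (0.069 ± 0.11). Its other, dimmer probe set gave -0.17. Wif1, another Wnt inhibitor, rose by 0.71 ± 0.13, from 6.35 to 6.80 (median 6.54) up to 6.70 to 8.35 (median 7.27). Treated replicate 6 held its highest value. Nkd1, Lgr5 and Axin2, targets of Wnt in crypts, fell by 0.38, 0.41 and 0.27. Of 17 mitosis genes 2 were higher and 1 lower (median 0.10), a share below the 30.2% of all genes, with Mki67 at 0.11 ± 0.11, not called. The higher count ranged from 0 to 4 on leaving out single samples, 0 without untreated replicate 3, 4 or 9 or treated replicate 6 1 without untreated replicate 1 or treated replicate 1, 2, 5, 7, 8, 9 or 10, and 4 without treated replicate 3. Mgmt, which removes the alkyl groups that AOM leaves on guanine, was below all untreated samples in every treated one (-0.37 ± 0.072), and Cdkn1a (-0.14) and Mdm2 (0.06) were not called.

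Npas2 and Arntl, transcription factors of the clock, fell. Npas2 levels ran from 8.98 to 9.96 (median 9.52) untreated and from 8.05 to 9.07 (median 8.73) treated (-0.87 ± 0.17), and Arntl fell by 0.81 ± 0.17. Cry1 rose by 0.65 ± 0.15. Of 15 measured clock genes 3 were higher and 2 lower, a share near the 30.2% of all genes, or 4 lower without untreated replicate 2. The labels do not state the time of day at which tissue was taken.

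The response did not differ by a called gene from that of INSRfl/fl mice. In the test of the difference between the 2 responses 0 genes were called (0%), with a smallest adjusted p of 0.576 and 1351 genes (6.09%) at an unadjusted p under 0.05. The smallest p belonged to Tiam2, which fell by 0.25 ± 0.076 in knockout and changed by 0.21 ± 0.076 in INSRfl/fl colon. Treml2, a receptor of B cells and myeloid cells, rose by 1.21 ± 0.15 against 0.37 ± 0.15, and Pm20d1 fell by 1.13 ± 0.12 against a change of -0.44 ± 0.12. Klhl23 stood at -0.40 ± 0.080 against 0.048 ± 0.080 and Ikzf4 at 0.065 ± 0.083 against -0.40 ± 0.083. The responses share no arrays. B cell genes had a median change of 1.81 in knockout and 0.94 in INSRfl/fl colon, macrophage genes 0.84 and 0.73, and type I interferon genes 1.15 and 1.38.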

How the data were processed

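RNA of 57 distal colon samples was hybridised to Affymetrix whole-transcript arrays, and the deposited log2 levels were used. Per the submitters' processing notes, the authors ran RMA, whose version is not given there. Of 41345 probe sets, 23521 name 1 gene; 16010 are unnamed here, and the set with the highest mean over all arrays stood for each of 22180 genes. limma 3.58.1 in R 4.3.3 was fitted over all 57 arrays and 6 groups (51 residual degrees of freedom), with two-sided tests and Benjamini-Hochberg adjustment. On simulated data for this comparison with 22180 genes, 88 of 100 genes changed by 0.5 and 100 of 100 changed by 1 were recovered, with 11 false among 199 calls. The simulation used independent normal noise and changed 200 genes, where 6692 were called in the real data. It held no samples that stand apart and no shared cell content, so its rates need not hold here.

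The comparison and the gene lists were chosen with earlier results of these data known. Named genes are the insulin receptor genes, the 12 largest rises and falls, the 10 of each with the smallest p, up to 6 called members of each list, uncalled members, and 5 genes by genotype difference. Correlations used 100000 permutations. The pair of Ms4a1 and Cd3e was chosen after seeing the data. Arrays limit precision by their number. The labels do not say whether equal replicate numbers mark a pair. With group means subtracted, same-numbered samples correlated between -0.071 and 0.2508, with 1 of 10 pairs over 0.1. These values cannot exclude a shared block, and fits with the number as a block are given below.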

Additional observations from a re-analysis of the deposited data

Results flagged for a closer look

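In 31 of 262 sets of 10 values searched, the highest or lowest sample was apart from the rest by Dixon's criterion. Chance flags about 1 in 20 groups, and many of these sets share samples and genes.

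AOM+DSS replicate 2 was low in genes of neutrophil attraction and squamous epithelium: Ppbp at 5.29 (next 11.14), Il1b at 7.59, Cxcl5 at 7.00, Cxcl3 at 3.77, Krt14 at 6.01, Krt6a at 4.22 and Arg1 at 5.19. Its list means were 5.70 for CXC chemokines, 6.99 for the interleukin-1 family and 5.76 for neutrophil genes. In AOM+DSS replicate 1 Notum was low at 4.78, and in replicate 6 Wif1 was high at 8.35.

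Untreated replicate 2 was high in Plet1 (12.12), Cdx2 (10.17), Vsig2 (10.09), Muc2 (13.72), Trpm5 (7.76) and Tiam2 (7.63), and low in Fxyd4 (6.70) and Klhl23 (7.08). Its list means were high for enterocyte (11.61), goblet (11.52), enteroendocrine (8.75) and tuft cell genes (7.23) and low for Hox genes, which mark position along the gut (6.75). Its mean correlation with its group was 0.98148, against 0.98661 for the next.

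Untreated replicate 5 was high in Ifit1 (9.08) and in the list means of interferon-gamma (9.02), type I interferon (7.88), NF-kB (8.73) and glycolysis and hypoxia genes (9.73).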

How the results depend on the processing

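With the B and T cell list means as covariates 28 genes were called, 20 higher and 8 lower, 12 of them at least 2-fold higher and 3 at least 2-fold lower, and Insr stood at -0.25 (adjusted p = 0.689); the groups' B cell means do not overlap, so treatment and lymphocyte content cannot be told apart. Without both samples numbered 2, an alternative chosen after seeing the data, 54 genes fell at least 2-fold and 542 lay below all untreated samples; the cause was not tested. Leaving out 1 sample at a time gave 6126 to 6890 called genes, 3337 to 3641 higher, 2789 to 3251 lower, 315 to 365 at least 2-fold higher, 31 to 45 at least 2-fold lower, 823 to 1017 above and 237 to 401 below all untreated samples, 0 by genotype, and Insr at -0.33 to -0.27. The 401 came from leaving out treated replicate 2. With the replicate number as a block 7071 genes were called, or 6587 in the 20 samples alone. The other settings gave 6407 to 7856 called genes, apart from the squamous covariate, with 5027. No called gene followed by name changed direction in these settings, while some list medians did. Correlations kept their direction in the settings in which they were rerun. Some reversed on leaving out the pair of samples farthest from the median of the first gene.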

Other observations

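Counts for some gene groups not described above follow. Over all genes 30.2% were called, 16.0% higher and 14.2% lower. Of 13 measured tumor necrosis factor and NF-kB genes 10 were higher (median 0.36), and of 14 Toll-like and related receptors 8 were higher and 2 lower (median 0.24). Of 12 cholesterol synthesis genes 5 were higher and 1 lower (median 0.20), 2 of them without overlap between the groups. Of 15 genes of the interleukin-6 family and Stat3, 8 were higher and 0 lower (median 0.27). Of 10 cytosolic ribosomal protein genes 3 were lower (median -0.14), so the share called in either direction was near that of all genes.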
